A study of Homo sapiens with 15 samples.

Results

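Cells of the human melanoma line A375 that had become resistant to PLX4720 (Resistant) were compared with the A375 line itself (Parental). Genes entered the comparison where the normalized read count was at least 10 in at least 3 of the 6 libraries, which held for 15805 of the 18322 genes listed. A375 carries an activating mutation of the kinase BRAF, and PLX4720 inhibits that mutant kinase. Each group had 3 libraries, described in the series as biological triplicates, and neither group carried the MYC T58A or hairpin constructs of the other groups in the series, which served here to estimate the spread of each gene and as a description of a few levels. The resistant cells are given as 1 clonal population, so the p-values below carry no variation between independently derived resistant cells. They rest on 1 spread per gene, pooled over the libraries within all 5 groups of the series. This is not the spread of the Parental and Resistant libraries alone. Neither group had reached confluence when RNA was taken from the cultures. Whether the drug was in the medium at harvest is not given.

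Mutant BRAF signals without growth factor input through the kinases MEK and ERK, and ERK then induces early transcription factors, cyclins and its own inhibitors, among them the DUSP phosphatases and the Sprouty proteins. BRAF inhibitors cut this output, and melanoma cells that grow in their presence are known to regain ERK signalling, to draw on receptor tyrosine kinases and other survival pathways, or to leave the melanocyte lineage for neural crest-like or mesenchymal states. Melanocytes arise from the neural crest, and the factors SOX10 and MITF specify them.

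Reads in genes numbered 24812116 to 25202625 per Parental library and 24222192 to 28036807 per Resistant library. Across genes, libraries of 1 group correlated at r = 0.993 to 0.996 and libraries of different groups at r = 0.940 to 0.943, values that describe the libraries and not replicates. The mean chi-square per gene between the reads of 2 libraries, near 1 under counting error alone, was 1.61 to 1.75 within Parental. Within Resistant it was 4.47 to 7.5, so the Resistant libraries varied more, which the counting intervals below leave out. Values below are normalized reads (the reads of a gene over the library's size factor), given for each library in the order of the table or as mean ± SD of the 3 libraries of a group. Log2 differences are Resistant minus Parental on the log2(value + 1) scale, folds are ratios of group means, and a gene was called at a limma adjusted p (Benjamini-Hochberg) under 0.05. With 3 libraries a group the smallest exact permutation p is 0.1, so no single gene was tested that way. Of the 15805 genes, 8507 were called (53.8%), of which 4512 were higher (28.5%) and 3995 lower (25.3%) in Resistant. At least 2-fold changes were called for 1278 genes higher (8.09%) and 907 lower (5.74%), and the median log2 difference over all genes was 0.0131. For 677 genes every library of 1 group lay under 10, so these entered only through the group in which they were high and had to differ. Among the genes described below there are 39 of this kind, for which the values are a description and no separation or call is offered as support: AC016735.2, ACTG2, AXIN2, CACNA1C, CASP1, CCND2, CD40, CDH19, CDH4, CDKN1C, CHRDL1, CNTN1, DCC, DNAH9, DPP4, DUSP8, EGR3, EPHB3, EPHB6, FABP7, FLT1, GLUL, HHIP, HOXD12, INHBE, IRF7, KRT14, LMOD1, NPTX2, NTRK2, PXDN, S100B, SAA1, SLC4A4, SOX10, SOX11, TFAP2B, TLL1 and VAT1L. In 66.1% of the 15805 genes all libraries of 1 group lay above all libraries of the other, with Resistant above in 34.8% and below in 31.3%. The libraries labelled shMYC1 and shMYC2, described as resistant cells with a hairpin against MYC, went against their labels, since MYC averaged 486.0 and 7817 normalized reads there against 302.5 in Resistant, and SOX10 averaged 11890.0 in the first against 7.5 in Resistant. Fitted without any of the other groups, the 6 libraries gave 5104 genes higher and 4541 lower. Gene lists are described by how many of their measured genes were called in each direction, to be read against 28.5% higher and 25.3% lower. The measured genes of a list can include genes with 1 group wholly under 10, which had to differ.

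Several of the largest rises started from a few reads. The metalloprotease gene TLL1 stood at 3.11, 3.07 and 0 normalized reads in the Parental libraries and 384.2, 419.3 and 375.1 in the Resistant libraries. The neural adhesion gene CNTN1 stood at 6.23, 1.02 and 2.09 normalized reads in the Parental libraries and 228.4, 236.0 and 214.8 in the Resistant libraries. CCND2, which encodes a D-type cyclin, stood at 5.19, 1.02 and 2.09 normalized reads in the Parental libraries and 168.6, 166.4 and 155.7 in the Resistant libraries. The log2 differences were 7.26, 6.0 and 5.60, and all 3 genes entered through the Resistant libraries alone. The others among the 15 largest rises included SLC4A4, a sodium bicarbonate cotransporter (81.1-fold, 95% counting interval 31.4 to 299), INHBE, an inhibin beta chain (73.4-fold, 95% counting interval 33.5 to 201), and PAPPA2, a protease that cleaves an IGF-binding protein (41.9-fold). In the libraries labelled shMYC1 all of the 15 largest rises stood nearer to the Parental than to the Resistant mean on the log2 scale, as did 13 of them in the libraries labelled shMYC2 and all 15 in MYC T58A cells. TLL1, for example, averaged 0.93 normalized reads in the libraries labelled shMYC1. The 15 genes were chosen for their difference between Parental and Resistant, so these counts are a description.

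SOX10 had the largest fall among the genes described here, from 5453, 5178 and 5215 normalized reads to 9.6, 4.7 and 8.19 (log2 difference -9.33). PXDN, an extracellular peroxidase that crosslinks collagen IV, stood at 390.4, 387.1 and 411.1 normalized reads in the Parental libraries and 1.07, 0 and 0 in the Resistant libraries. The netrin receptor gene DCC stood at 251.3, 282.7 and 250.4 normalized reads in the Parental libraries and 2.13, 0.94 and 0.91 in the Resistant libraries. Each of the 3 genes stood under 10 normalized reads in each Resistant library, and the ratios were 1228-fold (95% counting interval 220 to 48536) for PXDN and 203-fold (95% counting interval 78.8 to 746) for DCC. TRIB2, a pseudokinase that scaffolds ubiquitin ligases, fell 134-fold, VAT1L 404-fold (95% counting interval 138 to 1962) and the neuronal pentraxin NPTX2 386-fold (95% counting interval 68.9 to 15291). Of the 15 largest falls, 8 stood nearer to the Parental mean in the libraries labelled shMYC1 and 7 nearer to the Resistant mean. In the libraries labelled shMYC2 the counts were 5 and 10, and in MYC T58A cells 7 and 8. SOX10 averaged 19.5 normalized reads in the libraries labelled shMYC2 and 9.14 in MYC T58A cells. These counts too are a description.

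Some genes had reads in 1 group alone. No Resistant library held a read for 24 genes, and no Parental library held a read for 8. Against a floor of 3 reads per library, the neural crest factor TFAP2B was at least 69.5-fold lower, the dynein gene DNAH9 at least 57.1-fold lower, the noncoding transcript AC016735.2 at least 46.5-fold lower, glutamine synthetase (GLUL) at least 24-fold lower and the interferon regulator IRF7 at least 21.9-fold lower. GLUL stood at 63.3, 76.8 and 69.9 in the Parental libraries, and IRF7 at 64.4, 64.5 and 62.6.

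**Figure D1:**
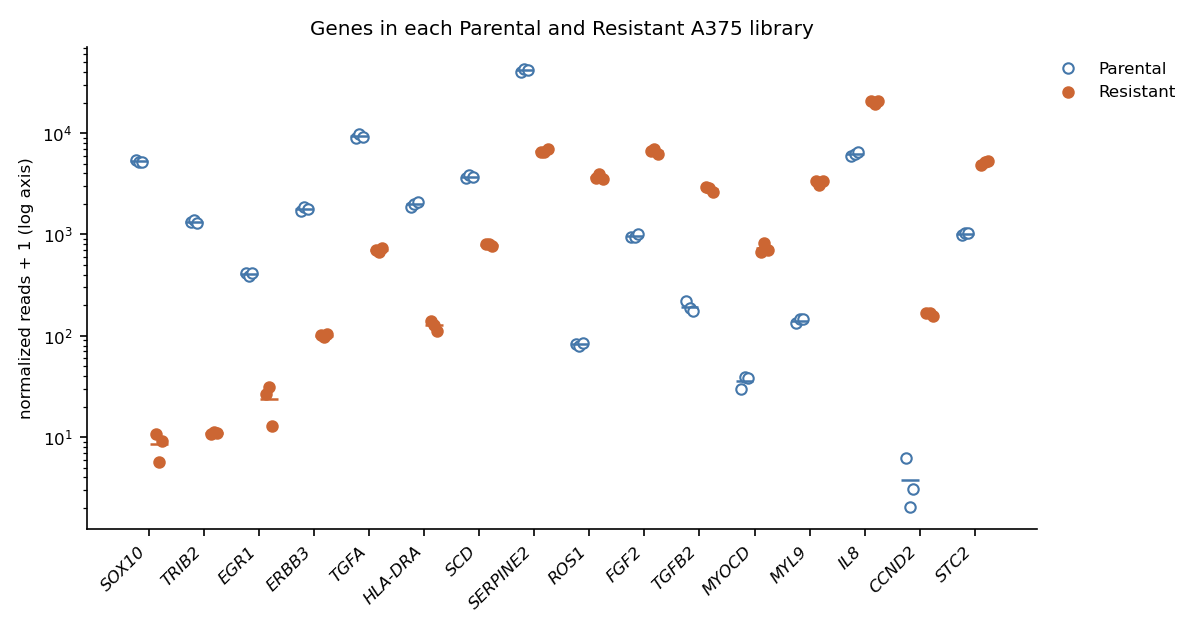
Normalized reads (log axis, value + 1) of 16 genes in each library, with open circles for the 3 Parental and filled circles for the 3 Resistant libraries and a bar at each group's mean. The 16 genes were picked, with no overlap between the libraries of the groups as a condition, which 66.1% of all genes compared met. SOX10 and CCND2 entered the comparison through 1 group alone. The genes run from SOX10 at 5282 against 7.5 normalized reads to STC2 at 1020 against 5115.

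Of 33 RAS, RAF, MEK and ERK genes and their scaffolds, 13 were higher and 7 lower. BRAF, the drug's target, stood at 1242 ± 52.0 in Parental and 1305 ± 92.4 in Resistant and was not called (limma adjusted p = 0.328). NRAS rose by 0.26 on the log2 scale, while MAPK3, which encodes ERK1, fell by 0.62. Larger changes were at the edges of the cascade. MRAS, a RAS relative that forms a complex with SHOC2 to activate RAF, stood at 170.3, 168.0 and 173.2 normalized reads in the Parental libraries and 540.0, 539.6 and 509.8 in the Resistant libraries (log2 difference 1.63, SE 0.1, limma adjusted p = 4.66e-10). RPS6KA2, an ERK-activated kinase of the RSK family, rose 3.75-fold, and MAP3K8, a kinase that activates MEK, rose 2.5-fold from 14.8 ± 3.85 to 37.1 ± 0.391. Among negative regulators of RAS, DAB2IP fell 2.87-fold and RASA1 1.6-fold, and RASA1 lies on chromosome 5 in a window with a median of -0.49 against its own -0.67.

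ERK's own inhibitors split into genes that fell and genes that rose. Of 21 ERK phosphatase and feedback genes, 10 were lower and 6 higher (median log2 difference -0.51). SPRY2, a Sprouty inhibitor of RAS activation, stood at 3108, 3180.1 and 3132 normalized reads in the Parental libraries and 540.0, 533.0 and 539.9 in the Resistant libraries. DUSP4, a nuclear phosphatase of ERK, fell 3.51-fold, SPRY4 2.89-fold, SPRED2 1.8-fold and ERRFI1, an inhibitor of the EGF receptor, 2.16-fold. The Sprouty and DUSP families did not move as one, since SPRY3 rose 6.03-fold from 30.3 ± 4 to 183.0 ± 15.7 and DUSP16 rose 2.98-fold. DUSP8, a phosphatase that acts on JNK and p38, stood at 2.08, 3.07 and 2.09 normalized reads in the Parental libraries and 72.6, 60.2 and 67.4 in the Resistant libraries and so entered through the Resistant libraries alone.

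Transcription factors that ERK induces were lower for 16 of 31 genes and higher for 8 (median -0.18). EGR1, an immediate early zinc finger factor, stood at 414.3, 385.1 and 416.3 normalized reads in the Parental libraries and 25.6, 30.1 and 11.8 in the Resistant libraries. EGR3 fell 138-fold (95% counting interval 47 to 674), NR4A1 4.9-fold, FOS 4.94-fold and ETV4 2.49-fold. The AP-1 partners went different ways: JUND rose 2.16-fold and FOSL2 2.16-fold, while FOSL1 (9174 ± 510.0 in Parental and 8499 ± 1197 in Resistant) and JUN (1917 ± 94.4 in Parental and 1956 ± 226.5 in Resistant) were not called. EGR1 lies on chromosome 5, where the genes around it were also lower, with a median of -0.57 in its window of 51 neighbouring genes, against its own -4.21.

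Serum response factor, the product of SRF, binds the CArG box and acts with 2 kinds of partner, ERK-activated factors at early genes and myocardin-type cofactors at smooth muscle genes. EGR1 fell here and several smooth muscle genes rose, so RefSeq promoter stretches (GRCh38.p14) of 5 genes from the 2 lists that hold a CArG box are shown, each read 5′ to 3′ on the gene's strand, with the CArG boxes in capitals.
EGR1 (chr5:138465354-138465425, plus strand): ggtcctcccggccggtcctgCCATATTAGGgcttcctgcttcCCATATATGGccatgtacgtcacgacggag
SRF (chr6:43171219-43171268, plus strand): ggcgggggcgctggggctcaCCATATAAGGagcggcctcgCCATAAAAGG
ACTG2 (chr2:73892878-73892964, plus strand): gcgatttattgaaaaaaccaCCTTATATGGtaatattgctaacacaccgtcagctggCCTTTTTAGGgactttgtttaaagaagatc
MYLK (chr3:123620613-123620662, minus strand): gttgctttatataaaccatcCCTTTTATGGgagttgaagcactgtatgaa
CNN2 (chr19:1026499-1026548, plus strand): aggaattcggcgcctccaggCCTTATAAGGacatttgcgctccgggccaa
In the 250 bases before the RefSeq start, searched on both strands, a CArG box was present in 2 of 23 ERK-induced factor promoters. In the actin and smooth muscle list it was present in 5 of 33 promoters, against 1.16% of all 35116 promoters and 1.06% of those of measured genes. FLNA, which was not called, and TPM4 of that list also hold a box and are not shown. The box was present in 2.03% of genes called at least 2-fold higher and 2.19% of those called at least 2-fold lower. EGR1 was lower in Resistant, whereas SRF rose 1.36-fold, the smooth muscle actin ACTG2 43.5-fold (95% counting interval 16.7 to 161), the myosin kinase MYLK 1.65-fold and the calponin CNN2 1.31-fold. These 5 genes were picked with their directions known, so they cannot show whether the box goes with a direction of change.

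MYOCD and several contractile genes rose, while other genes of their list changed little or did not reach the minimum level. MYOCD, the cofactor that drives smooth muscle genes through SRF, stood at 29.1, 37.9 and 37.6 normalized reads in the Parental libraries and 671.3, 823.5 and 701.0 in the Resistant libraries (log2 difference 4.36, SE 0.43, limma adjusted p = 1.98e-07). MYL9, a myosin light chain, stood at 131.9, 144.4 and 145.0 normalized reads in the Parental libraries and 3379, 3109 and 3392 in the Resistant libraries (log2 difference 4.54, SE 0.17, limma adjusted p = 4.53e-13). TAGLN, an actin-binding protein of smooth muscle, stood at 178.6, 190.5 and 213.9 normalized reads in the Parental libraries and 1981, 2063 and 1988 in the Resistant libraries (log2 difference 3.37, SE 0.098, limma adjusted p = 1.12e-14). In each of these 3 genes the lowest Resistant library lay above the highest Parental library, as in 34.8% of all genes. Smooth muscle actin ACTA2 rose 8.87-fold and the leiomodin LMOD1 90.7-fold (95% counting interval 15.9 to 3619). Of 38 measured actin-binding and smooth muscle genes, 22 were higher and 7 lower (median 0.48), and 4 genes of the list did not enter the comparison. Among those not entered, the smooth muscle markers MYH11 and DES stayed under 10 normalized reads in each of the 6 libraries. Other cytoskeletal genes had smaller changes. MYH9 rose 1.87-fold and TPM1 1.49-fold, filamin FLNA stood at 50638 ± 1969 in Parental and 54381 ± 1539.9 in Resistant and was not called, and the bundling protein FSCN1 fell 1.65-fold. TAGLN, ACTA2 and MYL9 had no CArG box in this window, which says only that the letters searched are not in these bases.

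**Figure D2:**
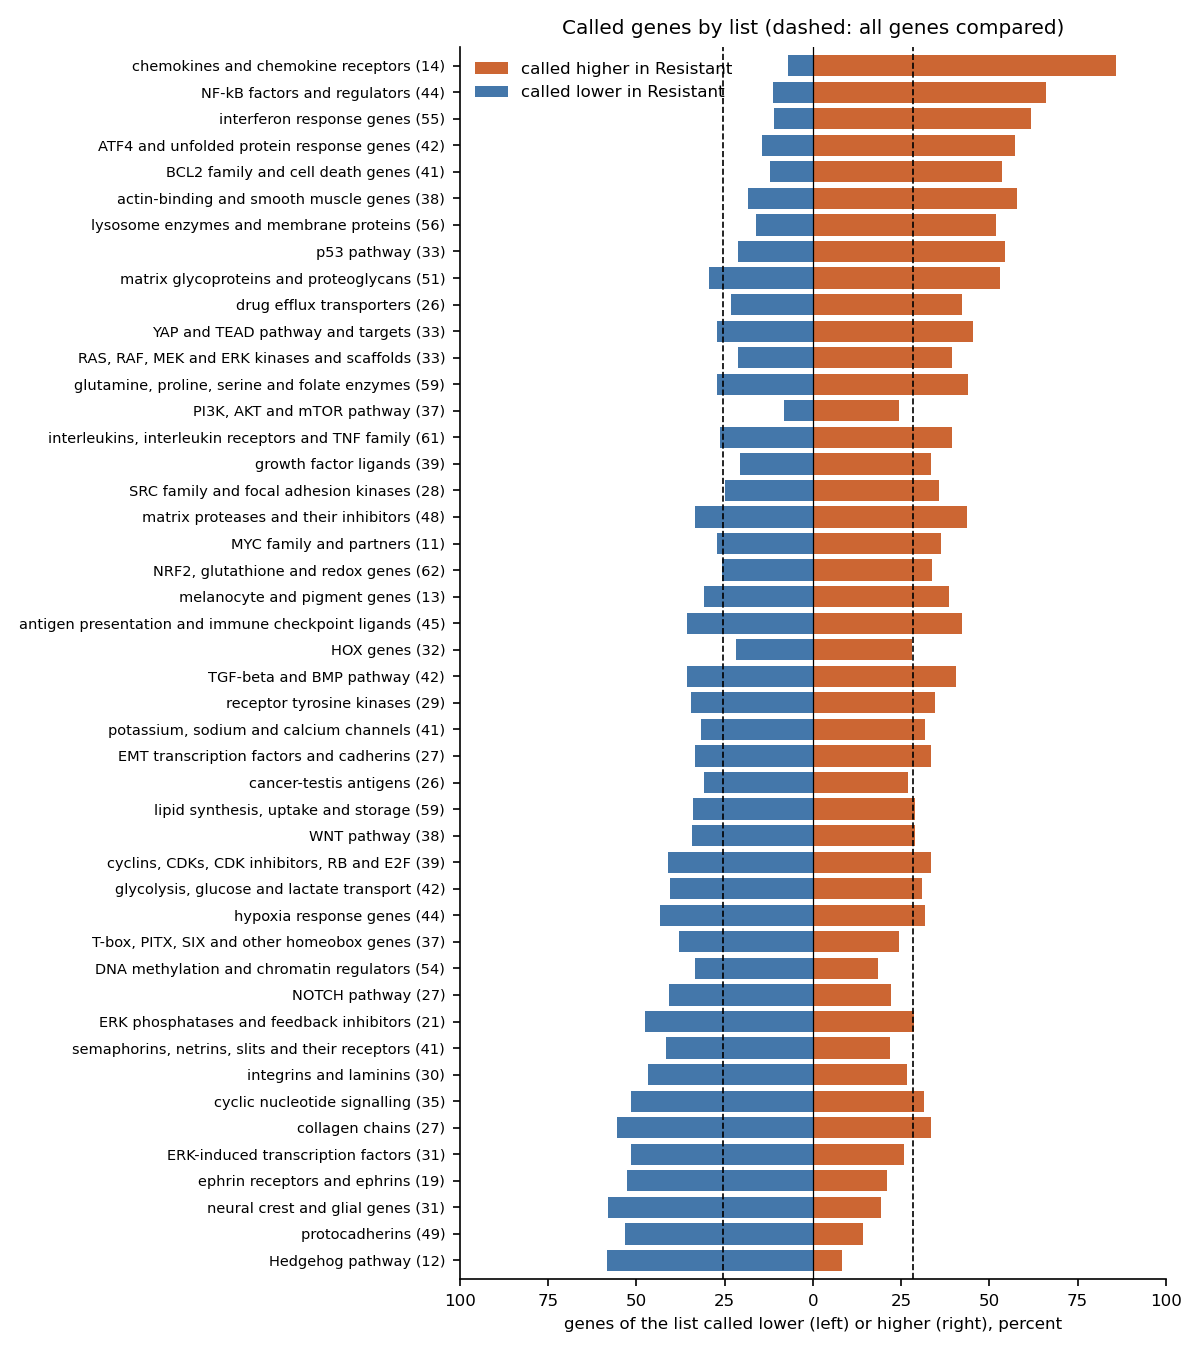
Share of the measured genes of each list that were called lower (bars to the left) or higher (bars to the right) in Resistant, in percent, with the number of genes in brackets and dashed lines at the shares over all 15805 genes (25.3% lower, 28.5% higher). Chemokines, NF-kB regulators and interferon response genes extend to the right, whereas protocadherins, neural crest genes and Hedgehog genes extend to the left.

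Receptor tyrosine kinases changed in both directions, with 10 of 29 higher and 10 lower. Of the 29, 4 had 1 group wholly under 10. ERBB3, the neuregulin receptor, stood at 1698, 1844 and 1779 normalized reads in the Parental libraries and 100.3, 95.9 and 102.0 in the Resistant libraries (log2 difference -4.14, SE 0.11, limma adjusted p = 3.9e-15). FLT1, a VEGF receptor, fell 71.5-fold (95% counting interval 37.4 to 157), the orphan receptor TIE1 7.1-fold, the neurotrophin receptor NTRK2 6.86-fold and ROR1 3.47-fold. In the other direction ROS1 stood at 81.0, 78.9 and 83.5 normalized reads in the Parental libraries and 3578, 3919 and 3544 in the Resistant libraries (log2 difference 5.49, SE 0.12, limma adjusted p = 4.17e-16). CSF1R, the receptor of macrophage colony-stimulating factor, rose 3.82-fold and the collagen receptor DDR2 2.27-fold. Several receptors that are often discussed in BRAF inhibitor resistance moved less. AXL stood at 19312 ± 178.5 in Parental and 19565 ± 340.3 in Resistant and was not called (adjusted p = 0.954 with limma), MET rose 1.17-fold, IGF1R 1.24-fold and FGFR1 1.37-fold, and EGFR fell 1.24-fold.

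Growth factor genes were called higher for 13 of 39 and lower for 8, a called share of 53.8%, the same as over all genes. Of the 39, 4 had 1 group wholly under 10. TGFA, a ligand of the EGF receptor, stood at 9008, 9726 and 9087 normalized reads in the Parental libraries and 693.7, 665.6 and 735.6 in the Resistant libraries (log2 difference -3.73, SE 0.14, limma adjusted p = 3.7e-11). FGF2, the basic fibroblast growth factor, stood at 935.5, 945.3 and 1005 normalized reads in the Parental libraries and 6711, 6901 and 6179.6 in the Resistant libraries (log2 difference 2.78, SE 0.065, limma adjusted p = 7.07e-16). PDGFD, a ligand of the beta PDGF receptor, stood at 44.6, 32.8 and 27.1 normalized reads in the Parental libraries and 363.9, 382.6 and 394.2 in the Resistant libraries (log2 difference 3.44, SE 0.14, limma adjusted p = 1.27e-12). The first of these was low in each Resistant library and the other genes were high in each. Over all genes, 66.1% had no overlap between the groups. NRG1, which binds ERBB3, rose 3.58-fold while ERBB3 fell. The midkine MDK rose 2.5-fold, and CSF1, the ligand of CSF1R, 2.49-fold. The ligands of FLT1 were lower too, VEGFA 1.38-fold and PGF 1.5-fold.

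**Figure D3:**
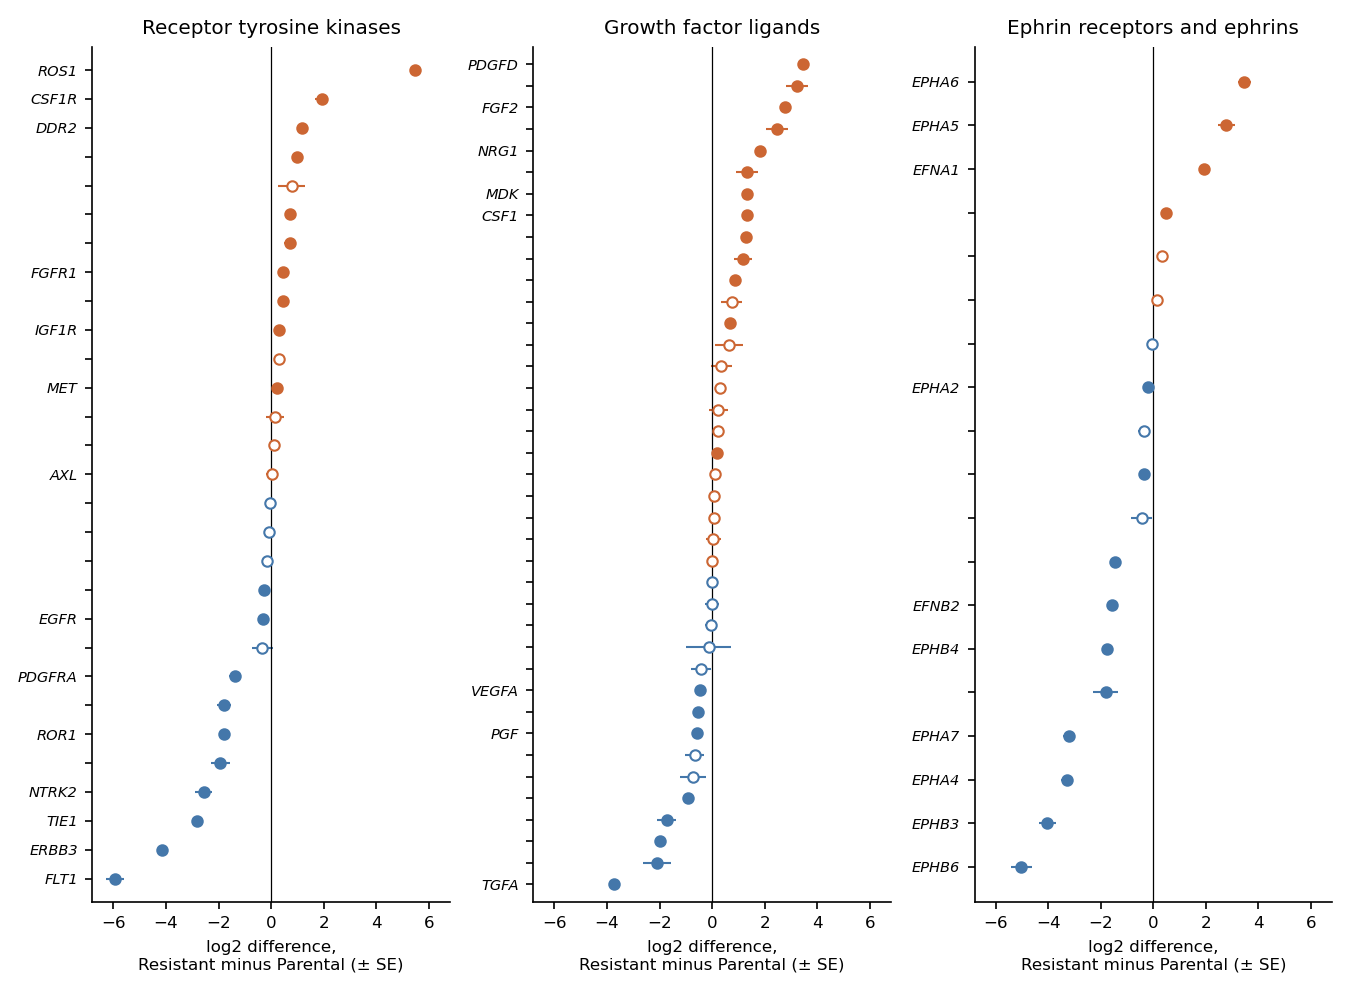
Fitted log2 differences (Resistant minus Parental, bars show ± SE) of receptor tyrosine kinases, growth factor ligands and ephrin genes, filled where called (limma adjusted p under 0.05) and open where not, with names for the genes described in the text. ROS1 (5.49) and FLT1 (-5.94) mark the ends of the receptor panel, PDGFD (3.44) and TGFA (-3.73) those of the ligand panel.

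Ephrin receptors and their ephrins, which signal between touching cells, were lower for 10 of 19 genes and higher for 4 (median -0.36). EPHB6 fell 78.1-fold (95% counting interval 21.2 to 651), EPHB3 17.4-fold, EPHA4 9.73-fold, EPHA7 9.26-fold and EPHB4 3.35-fold. Within the A class others rose: EPHA6 went from 12.1 ± 2.21 to 141.9 ± 8.47 and EPHA5 from 18.6 ± 4 to 133.0 ± 19.9. The ligand EFNA1 rose 3.87-fold, while EFNB2 fell 2.97-fold. EPHA2 changed by -0.22 on the log2 scale.

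Downstream of the receptors the PI3K, AKT and mTOR genes were mostly not called (9 higher and 3 lower of 37), a called share of 32.4% against 53.8% over all genes. AKT1 stood at 2694 ± 41.6 in Parental and 2517 ± 129.6 in Resistant and PIK3CA at 1284 ± 50.4 in Parental and 1169 ± 33.1 in Resistant, and neither was called. The stress-induced mTORC1 inhibitor SESN2 rose 2.08-fold, the adaptor IRS1 1.74-fold and the leukocyte subunit PIK3CD 1.77-fold. Among SRC family and focal adhesion genes 10 of 28 were higher and 7 lower. FYN rose 1.64-fold, LYN 1.61-fold and ABL2 2.02-fold, whereas SRC fell 1.17-fold, PTK2, the focal adhesion kinase, 1.3-fold and CAV1 1.58-fold.

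The cells are labelled melanocyte. Of 13 pigment cell genes 5 were higher and 4 lower, and with quantile normalization 5 were higher and 6 lower. MITF rose from 1511, 1508 and 1508 normalized reads to 3779, 3963 and 3500.4, but PMEL stood at 22.4 ± 3.06 in Parental and 17.4 ± 5.78 in Resistant, MC1R at 122.4 ± 9.35 in Parental and 101.6 ± 15.7 in Resistant, and the pigment enzyme genes TYRP1 and DCT stayed under 10 in each of the 6 libraries. MLANA and TYR were not analysed here. GPNMB, a glycoprotein that MITF induces, rose 2.15-fold, and the endothelin receptor EDNRB fell 1.68-fold. Genes of the neural crest and of glia were lower for 18 of 31 and higher for 6 (median -0.52). Of these genes 7 had 1 group wholly under 10.

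Several genes of that list fell beside SOX10. SOX11 stood at 413.2, 433.2 and 419.5 normalized reads in the Parental libraries and 6.4, 6.58 and 3.64 in the Resistant libraries. NES, an intermediate filament of neural precursors, stood at 2364, 2351 and 2296 normalized reads in the Parental libraries and 204.9, 189.9 and 172.1 in the Resistant libraries (log2 difference -3.62, SE 0.16, limma adjusted p = 3.96e-11). NES was lower in each Resistant library than in each Parental one, as were 31.3% of all genes, and SOX11 entered through the Parental libraries alone. NGFR, a receptor that marks neural crest-like melanoma cells, fell 7.53-fold, S100B 25.3-fold and the brain fatty acid binding protein FABP7 65.4-fold (95% counting interval 31.5 to 164). Other factors of the neural crest went both ways. SOX9 rose 1.98-fold, TFAP2A 1.67-fold and SNAI2 1.83-fold, PAX3 fell 1.43-fold, and TFAP2C was not called at 3093 ± 82.3 in Parental and 2635 ± 63.4 in Resistant.

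Of the HOX genes, which mark position along the body, 9 of 32 were higher and 7 lower, a called share of 50% against 53.8% over all genes. With edgeR on the recovered reads the balance turned, to 9 higher and 10 lower. HOXD12 rose 7.39-fold from 4.16 ± 2.78 to 30.7 ± 7.98 and HOXD13 2-fold, while HOXB8 fell 2.07-fold. In the list of T-box, RUNX, PITX and other homeobox genes 9 of 37 were higher and 14 lower. RUNX2, the factor of bone-forming cells, stood at 192.1, 210.0 and 224.3 normalized reads in the Parental libraries and 1387, 1345 and 1388 in the Resistant libraries (log2 difference 2.71, SE 0.082, limma adjusted p = 2.09e-14). RUNX3 moved the other way and fell 3.5-fold from 2284 ± 20.4 to 652.3 ± 53.4. TBX2, which represses cell cycle inhibitors, fell 2.41-fold.

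Cadherins and factors of the epithelial to mesenchymal transition were higher in 9 and lower in 9 of 27 cases. Of the 27, 4 had 1 group wholly under 10. CDH19, a cadherin of Schwann cell precursors, stood at 183.8, 195.6 and 210.8 normalized reads in the Parental libraries and 2.13, 3.76 and 4.55 in the Resistant libraries. CDH11, a cadherin of mesenchymal cells, stood at 95.5, 92.2 and 117.9 normalized reads in the Parental libraries and 484.5, 465.3 and 483.4 in the Resistant libraries (log2 difference 2.23, SE 0.37, limma adjusted p = 6.81e-05). CDH11 was higher in each Resistant library than in each Parental one, as were 34.8% of all genes. CDH4 fell 51.8-fold (95% counting interval 21.9 to 161) and CDH6 14.4-fold, while neural cadherin CDH2 fell 1.21-fold from 5777 ± 102.9 to 4782 ± 230.1. Among the transition factors PRRX1 fell 3.45-fold and ZEB1 1.68-fold, and ZEB2 rose 1.31-fold. Protocadherins were lower for 26 of 49 genes and higher for 7 (median -0.71), and 6 of the 49 had 1 group wholly under 10. Taken by symbol, a wider set than the list, 41 measured genes belong to the clustered families (20 lower, 4 higher, median -0.49) and 10 are other protocadherins (7 lower, 3 higher, median -1.31). The clustered genes share sequence, so their reads cannot always be told apart. They lie on chromosome 5, where the median over all genes was -0.493. The 8 genes of the list outside chromosomes 5 and 20 were lower in 6 cases and higher in 2 (median -1.31), among them PCDH17 (3.49-fold lower) and PCDH7 (2.53-fold higher).

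Collagen chains were lower for 15 of 27 genes and higher for 9. COL9A3, a cartilage-type chain, stood at 4085, 3708 and 3741 normalized reads in the Parental libraries and 213.4, 263.2 and 327.7 in the Resistant libraries (log2 difference -3.86, SE 0.14, limma adjusted p = 4.36e-12). COL5A1, a chain of fibrillar collagen V, stood at 4604, 4449 and 4578 normalized reads in the Parental libraries and 15941, 16651 and 17418 in the Resistant libraries (log2 difference 1.87, SE 0.076, limma adjusted p = 9.16e-13). COL1A1 rose 4.11-fold, COL15A1 7.64-fold and COL12A1 2.14-fold, whereas COL6A3 fell 5.64-fold, COL13A1 5.71-fold and the basement membrane chains COL4A1 and COL4A2 1.52-fold and 1.98-fold. Even the chains of 1 collagen moved apart, as COL6A2 rose 1.99-fold and COL6A1 fell 1.28-fold.

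Other matrix glycoproteins and proteoglycans rose in 27 of 51 cases and fell in 15 (median 0.34). LUM, the collagen-binding proteoglycan lumican, stood at 189.0, 211.0 and 197.2 normalized reads in the Parental libraries and 3113, 3086 and 2954 in the Resistant libraries (log2 difference 3.93, SE 0.14, limma adjusted p = 1.09e-13). VCAN, the large proteoglycan versican, stood at 411.2, 468.1 and 443.5 normalized reads in the Parental libraries and 3629, 4331 and 4000.2 in the Resistant libraries (log2 difference 3.17, SE 0.073, limma adjusted p = 5.81e-16). THBS1, thrombospondin 1, took the most reads of any gene in each Resistant library (0.90% to 0.911% of reads in genes) and stood at 93513, 93113 and 96749 normalized reads in the Parental libraries and 235569.6, 232806 and 229771 in the Resistant libraries. Lumican and versican were thus near or under 500 normalized reads in each Parental library and above 2500 in each Resistant library. NID2 rose 7.4-fold, SPP1 (osteopontin) 3.59-fold and TGFBI 1.91-fold, while SPARC fell 1.8-fold, MFAP2 4.21-fold and the syndecan SDC3 5.22-fold.

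Integrins and laminins were lower for 14 of 30 genes and higher for 8. ITGA6, a laminin receptor chain, fell 3.46-fold from 8769 ± 169.7 to 2536 ± 126.3, ITGB8 4.23-fold and ITGB4, the partner of ITGA6 in hemidesmosomes, 2.18-fold. The collagen receptor chains ITGA1 and ITGA2 fell 3.09-fold and 2.65-fold, and both lie on chromosome 5, with window medians of -0.54 and -0.55 against their own -1.62 and -1.41. Among chains of fibronectin and vitronectin receptors ITGA5 rose 1.57-fold, ITGAV 1.76-fold and ITGB1 1.33-fold, and the laminin chain LAMB3 rose 2.75-fold.

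Matrix proteases and their inhibitors rose in 21 of 48 cases and fell in 16. FAP and DPP4, related cell surface peptidases, rose 17.1-fold and 17.5-fold. CTSK, the collagen-degrading cathepsin K, stood at 99.7, 97.3 and 101.2 normalized reads in the Parental libraries and 1559, 1448 and 1536 in the Resistant libraries (log2 difference 3.92, SE 0.12, limma adjusted p = 2.41e-14). MMP3 rose 5.77-fold, MMP13 5.94-fold and MMP2 1.62-fold. Among genes of plasminogen activation the protease inhibitor SERPINE2 fell from 40551, 43040.3 and 41685 normalized reads to 6472, 6553 and 7021 and the activator PLAT fell 8.17-fold. TIMP3 fell 6.78-fold and TIMP1 2.14-fold, while TIMP2 rose 1.78-fold.

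Of the TGF-beta and BMP list 17 of 42 genes were higher and 15 lower. TGFB2, a TGF-beta ligand, stood at 219.1, 185.4 and 174.3 normalized reads in the Parental libraries and 2946, 2859.7 and 2646 in the Resistant libraries (log2 difference 3.87, SE 0.22, limma adjusted p = 3.45e-10). INHBA, which forms activin A, stood at 8862, 9196 and 9146 normalized reads in the Parental libraries and 27075, 27117 and 26151 in the Resistant libraries (log2 difference 1.56, SE 0.041, limma adjusted p = 2.4e-15). FST, the activin antagonist follistatin, stood at 2455, 2439 and 2514 normalized reads in the Parental libraries and 408.7, 389.2 and 356.9 in the Resistant libraries (log2 difference -2.68, SE 0.063, limma adjusted p = 7.07e-16). Both ligands were thus high, and the antagonist low, in every Resistant library, where 66.1% of all genes had no overlap between the groups. BMP antagonists CHRDL1 and NOG fell 21.4-fold and 3.11-fold, and the follistatin-related FSTL1 and FSTL3 rose 4.73-fold and 1.98-fold. The mediator SMAD3 rose 1.96-fold, the receptor TGFBR1 1.81-fold and the feedback inhibitor SMAD7 2.03-fold, and PMEPA1, another TGF-beta target, fell 1.79-fold.

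Genes of the YAP and TEAD pathway were higher in 15 and lower in 9 of 33 cases. WWTR1, which encodes the YAP relative TAZ, fell 3.13-fold from 17879 ± 343.4 to 5713 ± 100.1, and YAP1 rose 1.12-fold. The common YAP targets CYR61 and CTGF moved apart, CYR61 up 1.99-fold and CTGF down 1.84-fold, and the TEAD cofactor VGLL3 rose 5.85-fold. In the WNT list 11 of 38 genes were higher and 13 lower, and 5 of the 38 had 1 group wholly under 10. WNT5A, a noncanonical ligand found in invasive melanoma, stood at 3815, 3952 and 3850.3 normalized reads in the Parental libraries and 8927, 9641 and 9677 in the Resistant libraries (log2 difference 1.28, SE 0.056, limma adjusted p = 3.05e-12). The secreted inhibitor SFRP1 stood at 6885, 7437 and 6981 normalized reads in the Parental libraries and 652.1, 594.1 and 670.0 in the Resistant libraries (log2 difference -3.47, SE 0.26, limma adjusted p = 3.82e-07). The canonical target AXIN2 fell 5.13-fold and the effector LEF1 2.36-fold, while LGR4 rose 3.23-fold.

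Hedgehog genes were lower in 7 of 12 cases and higher in 1 (median -0.64), and 2 of the 12 had 1 group wholly under 10. HHIP, a decoy receptor that the pathway induces, fell 19.2-fold from 104.6 ± 8.89 to 5.46 ± 2.62, and the receptor PTCH1, also a target, fell 1.71-fold. NOTCH pathway genes were lower in 11 and higher in 6 of 27 cases. The ligand JAG1 fell 4.42-fold, and the target factors HES1 and HEY1 3.11-fold and 2.41-fold. Of 41 axon guidance genes 17 fell and 9 rose. The netrin receptor UNC5D fell 11.6-fold, SEMA3A 2.54-fold and NRP1 1.57-fold, and SEMA3E rose 5.34-fold.

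Phosphodiesterases, which degrade cyclic AMP and cyclic GMP, were lower for 11 of 17 measured genes and higher for 5 (median -0.96). PDE3A stood at 359.3, 391.2 and 349.6 normalized reads in the Parental libraries and 40.6, 51.7 and 45.5 in the Resistant libraries (log2 difference -2.98, SE 0.16, limma adjusted p = 5.1e-11). PDE4D fell 2.85-fold, though it lies on chromosome 5 in a window with a median of -0.54, and PDE4B fell 2.27-fold. The enzymes that rose included PDE5A (2.39-fold) and PDE11A (5.71-fold), and the cyclic GMP-dependent kinase PRKG1 rose 10.8-fold from 9.64 ± 3.08 to 104.5 ± 24. Ion channel genes were split evenly (13 higher and 13 lower of 41). The inward rectifier KCNJ2 fell 26.4-fold, while the calcium-activated channel KCNN3 rose 12.3-fold and the L-type calcium channel CACNA1C 28.6-fold.

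Genes of the NF-kB pathway were higher in 29 of 44 cases and lower in 5 (median 0.75). The subunit RELB stood at 347.8, 358.5 and 343.3 normalized reads in the Parental libraries and 815.4, 928.8 and 1075 in the Resistant libraries (log2 difference 1.41, SE 0.099, limma adjusted p = 1.54e-09). NFKB2 rose 2.03-fold, NFKB1 1.49-fold and REL 1.82-fold, and RELA was not called at 2185 ± 53 in Parental and 2162 ± 73.5 in Resistant. The inhibitors NFKBIA and TNFAIP3, which NF-kB itself induces, rose 3.26-fold and 2.57-fold. ICAM1 rose 4.07-fold, SOD2 4.39-fold and the acute phase protein SAA1 29-fold, and the receptor TLR4 fell 2.96-fold.

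Chemokine genes were higher in 12 of 14 cases and lower in 1 (median 1.45). Of them, 4 had 1 group wholly under 10 and so had to differ. IL8, a neutrophil attractant, stood at 5954, 6274 and 6506 normalized reads in the Parental libraries and 20666, 19275 and 20741 in the Resistant libraries (log2 difference 1.70, SE 0.08, limma adjusted p = 1.08e-11). CXCL1 stood at 2937, 3125 and 3220.1 normalized reads in the Parental libraries and 6305, 6738 and 6657 in the Resistant libraries (log2 difference 1.09, SE 0.087, limma adjusted p = 1.23e-08). CCL20 stood at 22.8, 23.6 and 26.1 normalized reads in the Parental libraries and 45.9, 70.5 and 66.5 in the Resistant libraries (log2 difference 1.28, SE 0.21, limma adjusted p = 5.68e-05). In each of these 3 genes all Resistant libraries lay above all Parental ones, as in 34.8% of all genes. CXCL2 rose 3.64-fold and CXCL16 2.59-fold. In the wider list of cytokines and receptors 24 of 61 were higher and 16 lower, and the interleukin 1 ligands IL1A and IL1B fell 9.56-fold and 7.01-fold, as did CD40 109-fold (95% counting interval 37.1 to 534). IL32 rose 13.4-fold, TNFRSF9 7.14-fold and FAS 2.17-fold.

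NF-kB dimers bind a 10-base site that is found in front of many of these genes. The RefSeq promoters (GRCh38.p14) of 3 regulators and 3 chemokines that rose are shown with the NF-kB sites in capitals.
NFKBIA (chr14:35404801-35404850, minus strand): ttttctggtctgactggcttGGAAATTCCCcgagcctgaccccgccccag
TNFAIP3 (chr6:137867172-137867233, plus strand): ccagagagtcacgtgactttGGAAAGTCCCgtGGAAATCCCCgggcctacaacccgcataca
BIRC3 (chr11:102317265-102317378, plus strand): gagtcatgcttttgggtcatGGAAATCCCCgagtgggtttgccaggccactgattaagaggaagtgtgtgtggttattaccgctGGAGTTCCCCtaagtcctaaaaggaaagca
CCL20 (chr2:227813743-227813792, plus strand): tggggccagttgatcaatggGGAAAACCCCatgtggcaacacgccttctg
CXCL1 (chr4:73869294-73869344, plus strand): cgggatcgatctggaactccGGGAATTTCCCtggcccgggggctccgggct
CXCL2 (chr4:74099243-74099293, minus strand): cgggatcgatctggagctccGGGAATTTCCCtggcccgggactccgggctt
CXCL1 and CXCL2 hold overlapping matches on both strands, and their stretches share most of their bases. Within 250 bases before the start, 5 of 10 chemokine promoters and 10 of 37 promoters of the NF-kB list held a site. The share was 5.21% of all promoters and 5.96% of those of measured genes. It was 9.14% of the 788 genes called at least 2-fold higher and 7.91% of the 594 called at least 2-fold lower. BIRC3, an inhibitor of cell death, rose 5.83-fold and CCL20 2.52-fold.

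Interferon response genes were higher in 34 of 55 cases and lower in 6 (median 0.34). MX1, an antiviral GTPase, stood at 141.2, 166.9 and 176.3 normalized reads in the Parental libraries and 546.4, 484.1 and 557.2 in the Resistant libraries (log2 difference 1.71, SE 0.17, limma adjusted p = 1.12e-07). APOL1 rose 3.35-fold, APOL6 2.5-fold and the RNA sensor IFIH1 2.11-fold. The exonuclease gene ISG20 fell 4.04-fold and TMEM173, which encodes the DNA-sensing adaptor STING, 2.07-fold. ISG15 stood at 100.7 ± 2.68 in Parental and 104.8 ± 13.2 in Resistant and was not called. The interferon-stimulated response element, spelled as GAAA, any 2 bases and GAAA again, was searched in the same way and is shown in capitals for 2 genes that rose, 1 that fell and 1 that was not called.
IFI44L (chr1:78620264-78620404, plus strand): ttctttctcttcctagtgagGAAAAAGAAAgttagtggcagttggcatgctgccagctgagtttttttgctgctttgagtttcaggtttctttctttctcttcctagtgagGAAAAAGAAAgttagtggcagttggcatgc
GBP1 (chr1:89065306-89065355, minus strand): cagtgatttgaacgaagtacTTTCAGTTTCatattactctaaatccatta
ISG20 (chr15:88638927-88638976, plus strand): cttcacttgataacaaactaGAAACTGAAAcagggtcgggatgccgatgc
ISG15 (chr1:1013364-1013419, plus strand): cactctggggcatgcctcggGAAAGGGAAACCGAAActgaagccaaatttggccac
It was present in 15 of 38 promoters of the list, against 3.02% of all promoters and 2.42% of those of measured genes. Its share was 3.17% among genes called at least 2-fold higher and 2.19% among those called at least 2-fold lower. IFI44L rose 4.23-fold and GBP1 3.51-fold. The genes shown were picked by their response, so these stretches are a description.

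Antigen presentation genes divided by class. All but 1 of the 15 measured class II chains, HLA-DM, HLA-DO, CD74 and CIITA genes were lower (median -3.53), and 5 of 6 class I chains were higher and 1 lower (median 1.04). HLA-DRA, a class II chain, stood at 1870.0, 2003 and 2079.6 normalized reads in the Parental libraries and 138.7, 126.9 and 110.2 in the Resistant libraries (log2 difference -3.98, SE 0.29, limma adjusted p = 8.3e-08). HLA-B, a class I chain, stood at 1868, 1859.9 and 1806 normalized reads in the Parental libraries and 5230.4, 5037 and 5482 in the Resistant libraries (log2 difference 1.51, SE 0.07, limma adjusted p = 6.17e-12). Among the regulators of the classes CIITA, which switches on class II genes, fell 4.9-fold, and NLRC5, its class I counterpart, rose 1.95-fold. B2M, the light chain of class I, rose 1.75-fold, the peptide transporter TAP1 1.45-fold and the immunoproteasome subunits PSMB8 and PSMB9 1.67-fold and 1.64-fold. The checkpoint ligand CD274 (PD-L1) was not called at 320.3 ± 15.8 in Parental and 290.6 ± 38.0 in Resistant, and PDCD1LG2 (PD-L2) rose 2.58-fold. HLA genes share sequence, so reads of near-identical chains such as HLA-DRB1 and HLA-DRB5 may have been split between them.

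**Figure D4:**
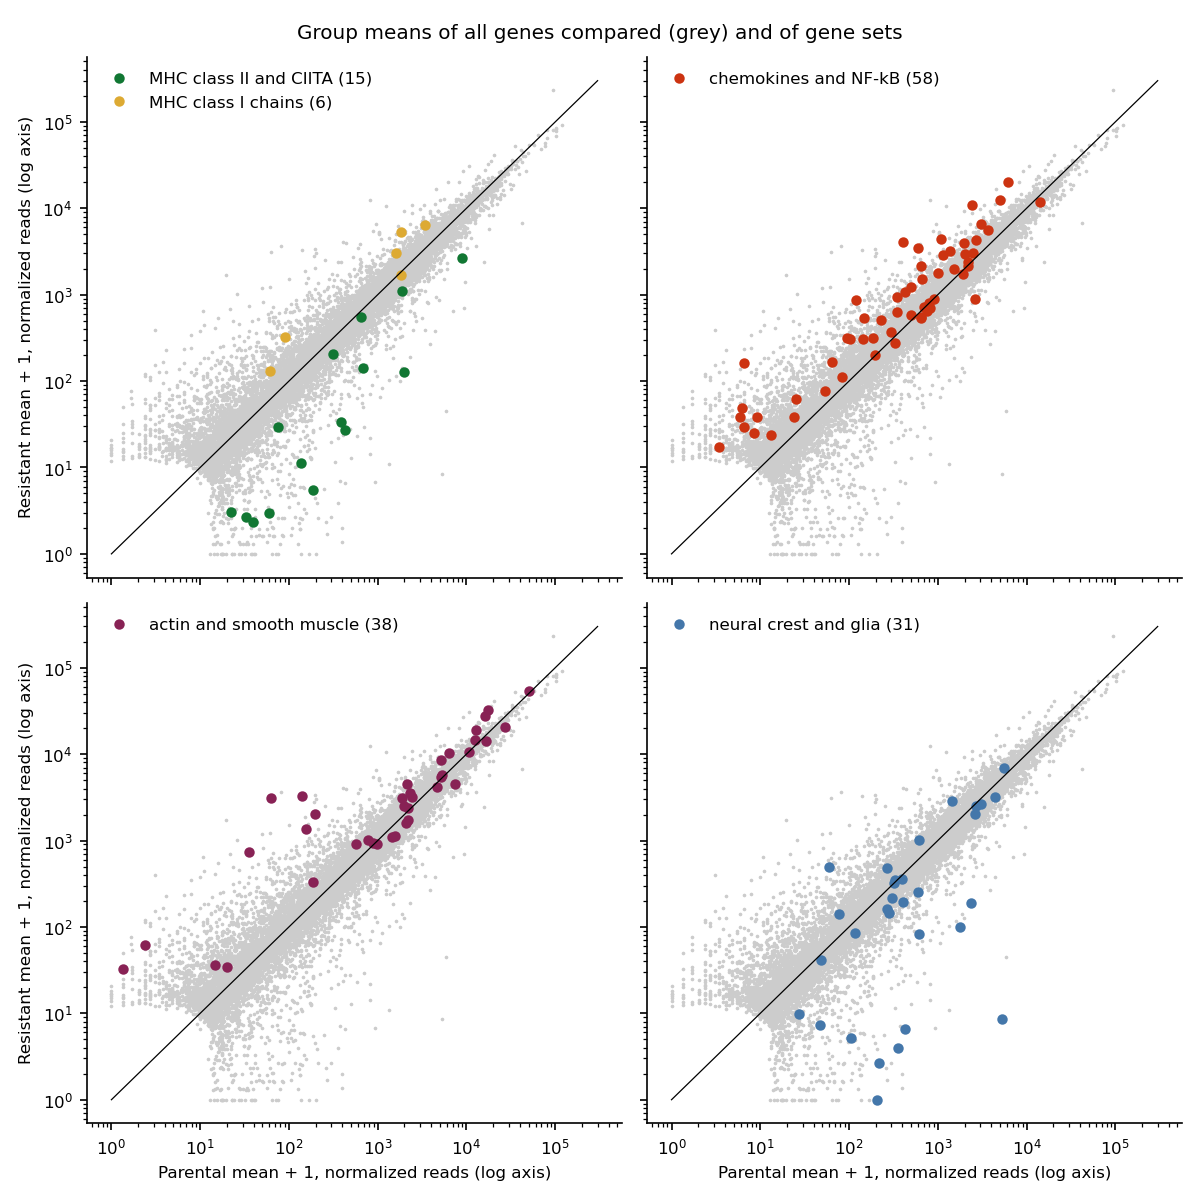
Mean normalized reads in Parental (x) against Resistant (y), both log axes (mean + 1), for all 15805 genes in grey with 5 gene sets in colour and the line of equality. Class II genes lie below the line and class I genes mostly above it, chemokine and NF-kB genes lie mostly above, smooth muscle and actin genes reach far above, and neural crest genes reach far below.

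Amino acid and endoplasmic reticulum stress genes were higher in 24 of 42 cases and lower in 6 (median 0.24). STC2, a secreted glycoprotein that ATF4 induces, stood at 994.7, 1034 and 1029.9 normalized reads in the Parental libraries and 4838, 5182 and 5326 in the Resistant libraries (log2 difference 2.32, SE 0.06, limma adjusted p = 2.4e-15). ADM2 rose 10.6-fold from 15.2 ± 4.05 to 160.6 ± 25.8, ASNS (asparagine synthetase) 1.95-fold and ATF4 itself 1.26-fold. Among the chaperones of the unfolded protein response HSPA5 fell 1.17-fold and HSP90B1 was not called at 33856 ± 622.5 in Parental and 35476 ± 1606 in Resistant. The ATF4 composite site TGATGNAA was found in 4 of 38 promoters of the list, 3.14% of all promoters and 1.57% of those of measured genes. Its share was 2.79% among genes called at least 2-fold higher and 2.02% among those called at least 2-fold lower. The site is shown in capitals for 2 genes that rose.
ASNS (chr7:97872449-97872496, minus strand): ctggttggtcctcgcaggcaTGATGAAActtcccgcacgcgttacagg
CHAC1 (chr15:40953242-40953289, plus strand): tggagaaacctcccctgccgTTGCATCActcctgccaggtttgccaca
CHAC1, which degrades glutathione, rose 6.5-fold.

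Several enzymes that make serine or pass its carbon and sulfur on rose. CBS, which condenses serine with homocysteine, stood at 182.7, 181.3 and 170.1 normalized reads in the Parental libraries and 914.6, 967.3 and 1093 in the Resistant libraries (log2 difference 2.47, SE 0.12, limma adjusted p = 1.25e-11). ALDH1L2, a mitochondrial folate enzyme, stood at 542.0, 541.8 and 511.3 normalized reads in the Parental libraries and 2642, 2867 and 2691 in the Resistant libraries (log2 difference 2.36, SE 0.11, limma adjusted p = 1.13e-11). CTH, which releases cysteine, rose 2.6-fold, and the serine synthesis enzymes PHGDH, PSAT1 and PSPH rose 1.69-fold, 1.93-fold and 1.71-fold. GLDC, an enzyme of glycine cleavage, fell 5.6-fold, and the glutamate transporters SLC1A1 and SLC1A3 fell 4.95-fold and 1.86-fold. GLUL, which makes glutamine, was without reads in Resistant as given above. Over the list 26 of 59 genes were higher and 16 lower.

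Of the genes of glycolysis and of glucose and lactate transport, 13 of 42 were higher and 17 lower, of which 5 and 2 by at least 2-fold (with total-count scaling 14 were higher and 14 lower). GAPDH fell by 0.40 on the log2 scale, ENO1 by 0.28 and LDHA by 0.30, and PGK1 was not called at 28233 ± 320.7 in Parental and 26972 ± 1442 in Resistant. HKDC1, a hexokinase relative, stood at 178.6, 154.7 and 156.5 normalized reads in the Parental libraries and 1582, 1600.0 and 1503 in the Resistant libraries (log2 difference 3.25, SE 0.13, limma adjusted p = 6.95e-13). The pyruvate dehydrogenase kinase PDK4 fell 4.22-fold and PDK1 rose 1.78-fold. Hypoxia genes were higher in 14 and lower in 19 of 44 cases: PLOD2, which hydroxylates collagen lysines, rose 3.3-fold and adrenomedullin ADM 3.46-fold, whereas SLC2A3 fell 1.92-fold and CA9 was not called at 723.4 ± 19.0 in Parental and 757.3 ± 22.3 in Resistant. In lipid metabolism the desaturase SCD fell from 3629, 3873 and 3653 normalized reads to 796.1, 804.7 and 773.8 (log2 difference -2.23, SE 0.1, limma adjusted p = 1.29e-10), and its regulator SREBF1 fell 2.67-fold, while ELOVL7, which lengthens fatty acids, rose 6.62-fold. Lipid genes as a list were higher in 17 and lower in 20 of 59 cases.

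Redox genes did not move as a group (21 higher and 16 lower of 62). The ferritin chains rose, FTH1 2.9-fold and FTL 1.71-fold, as did TXNRD1 1.54-fold and HMOX1 1.81-fold, whereas NQO1 fell 1.16-fold and AKR1C2 and AKR1C3, which share sequence, fell 3.86-fold and 3.64-fold. Lysosome genes were higher in 29 of 56 cases and lower in 9. LAMP2 rose 1.54-fold, the autophagy gene WIPI1 3.23-fold, the proton pump subunit ATP6V0D2 4.82-fold and the regulator TFEB 2.16-fold, while CTSC fell 1.73-fold. Of the drug efflux transporters, 11 of 26 were higher and 6 lower. ABCB1, the multidrug transporter P-glycoprotein, rose from 298.0, 269.4 and 278.6 normalized reads to 510.1, 468.2 and 482.5, ABCG2 rose 1.83-fold and ABCC9, a channel regulator of the same family, 4.31-fold.

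Cyclins, CDKs and their inhibitors were higher in 13 and lower in 16 of 39 cases. CCND1 fell from 26562, 26226 and 26615 normalized reads to 13789, 14737 and 14681 (log2 difference -0.88, SE 0.046, limma adjusted p = 3.29e-11), and CCND2 rose to the levels given above. CDK4 stood at 8162 ± 178.4 in Parental and 8220.1 ± 229.3 in Resistant and was not called, and CDK6 rose 1.34-fold. The inhibitor gene CDKN1C, which encodes p57, stood at 147.4, 122.9 and 159.6 normalized reads in the Parental libraries and 7.47, 3.76 and 3.64 in the Resistant libraries, whereas CDKN1A, which encodes p21, rose 1.56-fold. MKI67, a marker of cycling cells, stood at 16645 ± 345.7 in Parental and 15506 ± 1382 in Resistant and was not called. In the p53 list 18 of 33 genes were higher and 7 lower, with MDM2 up 1.47-fold and GDF15 5.24-fold, and TP73 down 4.41-fold. MYC, on which the series centres, stood at 436.1, 418.9 and 413.2 normalized reads in the Parental libraries and 329.8, 273.6 and 304.1 in the Resistant libraries (log2 difference -0.49, SE 0.064, limma adjusted p = 4.32e-06). The MAX-binding repressor MXD3 fell 1.81-fold while MGA rose 1.56-fold.

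Cell death genes were higher in 22 of 41 cases and lower in 5 (median 0.24). CASP1, the inflammatory caspase, stood at 5.19, 5.12 and 6.26 normalized reads in the Parental libraries and 257.2, 194.6 and 250.4 in the Resistant libraries. BMF, which binds and blocks survival proteins, stood at 59.2, 74.8 and 72.0 normalized reads in the Parental libraries and 585.9, 551.8 and 518.9 in the Resistant libraries (log2 difference 3.00, SE 0.19, limma adjusted p = 3.48e-10). BBC3 (PUMA) rose 3.02-fold and CASP8 1.56-fold, beside the inhibitors CFLAR (1.67-fold) and XIAP (1.45-fold). The survival genes BCL2L1, BCL2 and MCL1 fell 1.73-fold, 1.35-fold and 1.22-fold. BCL2L11, which encodes BIM, was not called at 377.6 ± 17.5 in Parental and 412.2 ± 15.5 in Resistant.

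Genes of chromatin regulation were called in 51.9% of cases, near the 53.8% of all genes (10 higher and 18 lower of 54). HDAC9 rose 1.87-fold and HDAC3 fell 1.74-fold. HDAC3 lies on chromosome 5, in a window with a median of -0.57 against its own -0.80. Cancer-testis antigens were higher in 7 and lower in 8 of 26 cases. MAGEA1 fell 6.25-fold, MAGEA4 was not called at 27151 ± 602.6 in Parental and 29540.3 ± 775.1 in Resistant and PRAME fell 1.26-fold, and genes of the MAGEA family share sequence.

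Changes also followed chromosomes. Of the 14034 genes matched to a chromosome by symbol, those on chromosome 5 had a median log2 difference of -0.493 and were called lower in 70.5% and higher in 9.97% of cases. On chromosome 20 the median was -0.359, with 66.4% lower and 10% higher. The median of each other chromosome lay between -0.129 (chromosome 13) and 0.144 (chromosome 4), though single windows of 51 neighbouring genes reached -0.704 on chromosome 2 and 0.695 on chromosome 14. Windows with a median within 0.3 of 0 held 12097 genes. Several small changes described above lay in windows that moved the same way. On chromosome 5 the window medians were -0.56 around MXD3 (its own difference -0.85), -0.54 around SPARC (-0.85), -0.51 around SLC1A3 (-0.89), -0.57 around TMEM173 (-1.05) and -0.56 around SPRY4 (-1.53). On chromosome 20 they were -0.29 around SRC, whose own difference of -0.23 was the smaller, -0.38 around BCL2L1 (-0.79) and -0.30 around PMEPA1 (-0.84). Elsewhere they were -0.34 around SPRED2 (-0.85), 0.33 around XIAP (0.53), 0.35 around LAMP2 (0.62) and 0.30 around LYN (0.68). Without the genes on chromosomes 5 and 20, a choice made after these medians were seen, the neural crest list was lower in 17 and higher in 6 of 28 cases, the integrin list lower in 11 and higher in 8 of 27, and the NF-kB list higher in 28 and lower in 5 of 43.

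**Figure D5:**
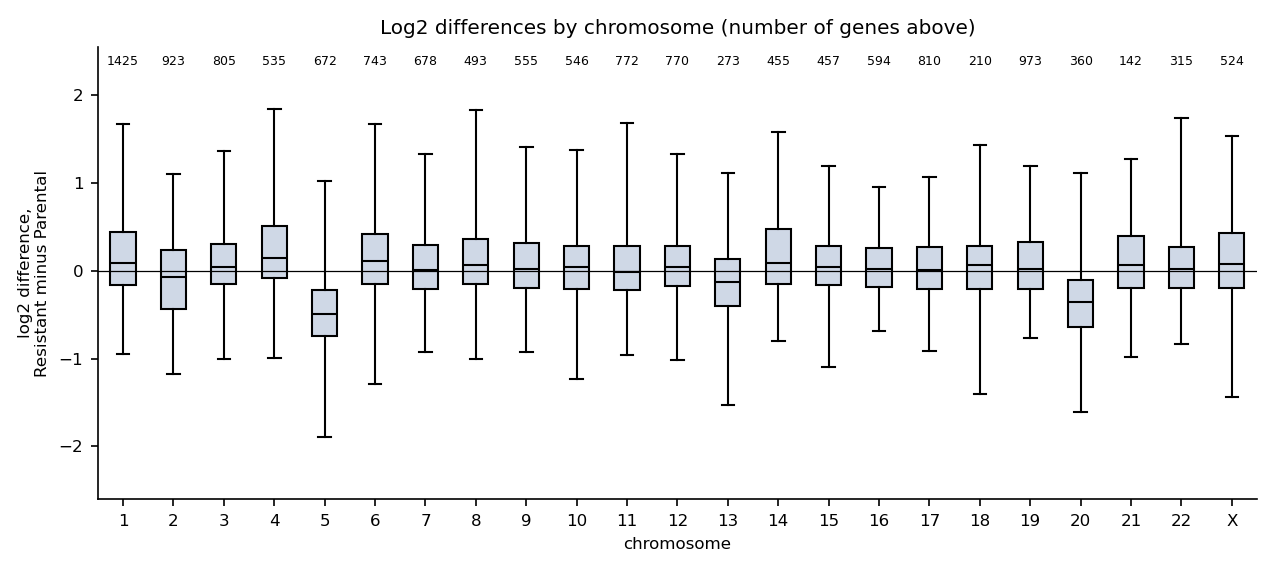
Log2 differences (Resistant minus Parental) of the genes on each chromosome, as boxes from the lower to the upper quartile with a line at the median and whiskers from the 5th to the 95th percentile, with the number of genes above. The boxes of chromosomes 5 (median -0.493) and 20 (-0.359) sit below those of the other chromosomes.

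Markers of other cell types were read in the same libraries, since in bulk RNA a change in the share of cells of a type and a change in RNA per cell cannot be told apart. Fibroblast markers summed to 2588 to 2764 normalized reads in the Parental libraries and to 6059 to 6357 in the Resistant libraries, with 7 of 10 measured genes higher and 3 lower. The defining fibroblast collagens COL1A2 and COL3A1 stayed under 10 normalized reads in each of the 6 libraries, and PDGFRA fell 2.7-fold. Their sum moved with LUM, ACTA2, FAP and COL1A1, which are in it, and its part in the matrix and smooth muscle changes was not tested. Epithelial markers summed to 8858 to 9101 in Parental and 6404 to 6813 in Resistant, with 2 of 7 measured genes higher and 4 lower. The desmosomal DSP was 2.52-fold higher and the keratin KRT14 38-fold (95% counting interval 19 to 88.8) lower. Endothelial markers summed to 346.2 to 377.7 in Parental and 101.5 to 123.8 in Resistant, with 1 of 4 measured genes higher and 2 lower. Of the immune list only LYZ and CD68 were in the table, 1 called higher and 1 lower. They summed to 181.6 to 217 in Parental and to 69.37 to 72.83 in Resistant. Of 17 mitochondrial and nuclear RNA quality transcripts, 3 were called, all higher, among them the ribosomal MT-RNR2 (2.03-fold) and the nuclear NEAT1 (1.49-fold).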

How the data were processed

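RNA was taken from A375 cells and made into stranded libraries of messenger RNA, per the labels' protocols. The submitters' processing notes list Trim Galore and cutadapt, which trim reads, STAR, which aligns them, HTSeq, which counts them, and DESeq2, all without versions. Build, annotation and strand setting were not given in the sources used here, so overlapping and antisense genes are uncertain, as are genes with near-identical copies (MAGEA genes, clustered protocadherins, HLA-DR chains, AKR1C genes). The table deposited by the authors holds 1 signal value per gene and library, a read count divided by a size factor. In each library 100% of the values were whole multiples of 1 read within 0.01 of a read, and the reads recovered in this way were used for depth, counting intervals and the count tests. Its columns name the group but not the labelled replicate, so libraries are numbered within a group in table order, as names only. That the libraries came from separate cultures is known only from the words on triplicates. The p-values measure the spread between libraries within a group, pooled over the 5 groups of the series.

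Values were taken as log2(value + 1), which understates changes of low genes, and fitted with limma 3.58.1 (trend and robust; R 4.3.3) on 5 group means over 15 libraries, with Benjamini-Hochberg adjustment over 17012 genes that reached 10 in at least 3 of the 15 libraries. The scripts were tested on simulated data. Alternatives were total-count scaling, quantile normalization, pseudocounts of 0.1 and 10, no filter, 10 in all 6 libraries, the 6 libraries alone, the fit without the libraries labelled shMYC2, limma without robust, edgeR 4.0.16 and DESeq2 1.42.0 on the recovered reads, an adjusted p under 0.01, a minimum change of 0.5, and each library left out. Where a group held no read, the fold is a lower bound at 3 reads per library, and where it held few, the ratio has a 95% interval for counting error only. Promoters and chromosomes come from RefSeq (GRCh38.p14) by symbol, for 11074 and 14034 of the 15805 genes. Motifs were searched on both strands in the 250 bases before the start.

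The members and the 51 gene lists were chosen with earlier results of these data known. Genes were named by a rule: MYC, BRAF and NRAS, the 15 largest rises and falls whose higher group averaged 100 or more, the 5 called genes of highest level in each direction that changed at least 2-fold, up to 6 called genes of each list in each direction and its 3 most abundant genes, and markers of cell types. Of 326 genes given with values, 250 follow it. The others were chosen after their values were seen: AKT1, APOL6, ASNS, ATF4, BCL2L11, CA9, CASP8, CCL20, CD274, CDH2, CDK4, CFLAR, CIITA, CNN2, COL6A1, COL6A2, CSF1, CXCL16, EFNB2, EGFR, ETV4, FGFR1, FSTL3, HMOX1, ICAM1, IFIH1, IGF1R, ISG15, ITGA2, ITGB4, JUN, LAMP2, LEF1, MC1R, MDK, MMP3, MX1, MYLK, NES, NFKB1, NFKB2, NFKBIA, NGFR, NQO1, PAX3, PCDH17, PDE4B, PDE4D, PDK1, PGK1, PHGDH, PIK3CA, PMEL, PMEPA1, PRAME, PSAT1, PSMB8, PSMB9, PSPH, REL, RELA, RELB, SEMA3A, SMAD7, SPP1, SPRED2, SRF, TAP1, TGFBR1, TIMP1, TIMP2, TPM1, TXNRD1, XIAP, YAP1 and ZEB2. Some genes are not reported here.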

Additional observations from a re-analysis of the deposited data

How the results depend on the processing

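The number of genes called stayed within 1.5 times its value under each alternative except a test against a log2 change of at least 0.5, where 2436 genes were called, 1337 higher and 1099 lower. Requiring 10 normalized reads in all 6 libraries, which takes out genes near 0 in 1 group, left 796 genes called at least 2-fold higher and 514 lower. With quantile normalization 4416 genes were called higher and 4554 lower, so that 49.2% of calls were higher against 53%. With edgeR the counts were 4568 and 4431, and with DESeq2 4585 and 3970. The median over all genes lay between -0.0164 and 0.0223 under all settings. With 1 library left out, 4049 to 4324 genes were called higher and 3572 to 3797 lower, and 1232 to 1307 and 891 to 927 by at least 2-fold. The number of lists with a median above 0, 30 of 51, became 26 with quantile normalization, 24 with edgeR and 31 with DESeq2, and 26 to 30 with 1 library left out. Of the 306 genes with printed values that were called, none lost the call except under the minimum change of 0.5, where 52 did. The filter of 10 in all 6 libraries left 281 of the 326 printed genes to test. FLNA, HSP90B1, MAGEA4, MC1R, PIK3CA and TFAP2C, not called in the fit given, were called under quantile normalization, the 6 libraries alone or another of these alternatives, and CD274 without Resistant library 2.

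None of the 306 called genes with printed values changed sign. The uncalled genes that did lie near 0: ISG15 (-0.0445 with quantile normalization, -0.0142 without Resistant library 3), AXL (-0.00232 with edgeR), CDK4 (-0.0107 with edgeR, -0.00593 without Parental library 2, -0.00606 without Resistant library 3), RELA (0.000612 without Parental library 1, 0.00692 without Resistant library 1), FOSL1 (0.0011 without Resistant library 1) and JUN (-0.0152 and -0.0368 without Resistant library 2 or 3). With each library left out in turn these values ranged from -0.0142 to 0.156 for ISG15, -0.00606 to 0.0328 for CDK4, -0.0415 to 0.00692 for RELA, -0.198 to 0.0011 for FOSL1 and -0.0368 to 0.123 for JUN. No paired analysis was possible because the table's columns carry no labelled replicate number, so the planned replicate block was not run. At this depth genes under 10 normalized reads have wide counting error, and 3 libraries of 1 clonal population bound what the comparison can say of resistant cells in general.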
